A study of Mus musculus with 4 samples.

Results

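The complement genes studied here were a list of 32 genes of the complement system, comprising components, lectins, regulators and receptors, measured in mouse liver. A gene entered through every probe set of the array that the platform annotation assigns to that 1 symbol. This rule gave 50 probe sets for 28 of the 32 genes, out of 18194 genes represented in the same way on the array. The expression of C1rl, C3, C4b and Cfd is not analysed here. The promoters of C1rl and C3 enter the motif counts of hepatocyte members, and that of Cfd only the count over all promoters. Livers came from male C57BL/6J mice that were 8 to 12 weeks old when the diets began. The 4 groups were a high-fat diet with clodronate liposomes, a high-fat diet with PBS, a low-fat diet with clodronate liposomes and a low-fat diet with PBS. Fat supplied 45% of energy in the high-fat diet and 10% in the low-fat diet, palm oil took the place of lard in both, and feeding lasted 20 weeks. Clodronate liposomes, which kill the phagocytes that engulf them, or PBS were injected into the abdominal cavity in the last week. RNA was pooled within each group, from 10 mice per high-fat group and 8 mice per low-fat group, and each pool was hybridised to 1 array. A group is therefore 1 array, the spread between mice was not measured, and PBS without liposomes does not separate the liposome from the drug or from the loss of macrophages. In whole liver, fewer cells of a type and less RNA per cell cannot be told apart.

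Complement is a cascade of plasma proteins that marks microbes and debris, attracts leukocytes and perforates membranes. It starts when C1q binds antibody or cell debris (classical pathway), when mannose-binding lectins or ficolins bind sugars (lectin pathway), or by spontaneous turnover of C3 that factor B and factor D amplify (alternative pathway), and all routes end in the membrane attack complex of C5 to C9. Hepatocytes secrete most of these proteins, while C1q is made mainly by macrophages and dendritic cells, so the liver holds both sources. Comparing livers after clodronate liposomes and after PBS asks which complement transcripts are lower where macrophage transcripts are lower.

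The promoters of 4 of the 5 genes whose signal fell after clodronate are shown first, beside that of Hc, which encodes C5 and comes from hepatocytes. They are RefSeq windows from 250 bases before to 50 bases after the gene start, and are shown because the results turn on these genes. Capitals mark matches on either strand to GAGGAAGT, a site of the myeloid factor PU.1, and to GTTAATNAT, taken from the site of the hepatocyte factor HNF1.

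C1qb, GRCm38.p6 chr4:136886151-136886450, minus strand: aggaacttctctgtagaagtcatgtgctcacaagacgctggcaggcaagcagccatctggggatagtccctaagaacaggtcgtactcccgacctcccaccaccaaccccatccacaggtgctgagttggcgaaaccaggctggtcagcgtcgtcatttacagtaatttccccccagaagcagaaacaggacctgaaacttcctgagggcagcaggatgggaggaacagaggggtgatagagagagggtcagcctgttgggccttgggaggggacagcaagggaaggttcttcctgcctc
C1qc, GRCm38.p6 chr4:136892865-136893164, minus strand: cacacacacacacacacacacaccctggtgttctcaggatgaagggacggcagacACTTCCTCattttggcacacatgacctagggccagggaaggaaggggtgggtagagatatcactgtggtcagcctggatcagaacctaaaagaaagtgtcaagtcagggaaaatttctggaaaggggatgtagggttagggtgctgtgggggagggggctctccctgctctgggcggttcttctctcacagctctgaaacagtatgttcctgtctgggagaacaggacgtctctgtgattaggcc
Cfp, GRCm38.p6 chrX:20931506-20931805, minus strand: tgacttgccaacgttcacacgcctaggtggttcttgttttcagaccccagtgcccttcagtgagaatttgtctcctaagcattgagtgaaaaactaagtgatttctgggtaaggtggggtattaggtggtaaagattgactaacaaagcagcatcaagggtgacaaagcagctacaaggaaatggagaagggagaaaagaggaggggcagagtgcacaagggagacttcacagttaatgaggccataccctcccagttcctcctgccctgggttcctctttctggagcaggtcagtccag
Fcna, GRCm38.p6 chr2:25627925-25628224, minus strand: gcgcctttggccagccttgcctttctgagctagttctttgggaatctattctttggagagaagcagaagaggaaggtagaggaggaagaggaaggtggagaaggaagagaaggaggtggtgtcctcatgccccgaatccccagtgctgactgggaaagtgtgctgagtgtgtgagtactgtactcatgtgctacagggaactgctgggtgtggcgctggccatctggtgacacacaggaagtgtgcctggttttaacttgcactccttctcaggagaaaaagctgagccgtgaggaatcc
Hc, GRCm38.p6 chr2:35061363-35061662, minus strand: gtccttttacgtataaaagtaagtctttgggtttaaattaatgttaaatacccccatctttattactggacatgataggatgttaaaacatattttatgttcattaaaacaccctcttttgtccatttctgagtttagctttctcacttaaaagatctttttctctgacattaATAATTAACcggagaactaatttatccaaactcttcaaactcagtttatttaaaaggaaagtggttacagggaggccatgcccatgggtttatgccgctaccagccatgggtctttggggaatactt

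The C1qc promoter held the letters of the PU.1 site on the opposite strand, as ACTTCCTC beginning 195 bases before the start. These letters were found in 1 of the 6 myeloid members with a promoter in the table, in 0 of 14 hepatocyte members and in 3.2% of all 32851 promoter windows. The HNF1 letters were found in the promoters of Hc, 77 bases before the start, and of C4bp, 64 bases before it, that is in 2 of 14 hepatocyte members, 0 of 6 myeloid members and 0.801% of all windows. Letters of a C/EBP site, TTGCNNAA, lay in 4 of 14 hepatocyte promoters, those of C1ra, C1rl, C3 and C9, and in 10.8% of all windows, and those of a STAT site, TTCNNNGAA, in 4 of 14 and 8.3%. Both were in 0 of the 6 myeloid promoters. C1ra held both, and the 2 matches did not overlap. These are matches of letters only.

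Levels are the deposited log2 expression values. For differences between single arrays a value under 4 was treated as unmeasured and set to 4, which makes a fold against it a lower bound, written "at least". The limma fit used the values as deposited, also those under 4. Each gene is represented by its brightest probe set. Of the 28 genes 27 reached 4 on at least 1 array and were tested. C5ar1, the receptor for the anaphylatoxin C5a, did not, with values between 2.40 and 2.79 over the arrays. C3ar1, the C3a receptor, passed only through the high-fat PBS array. The 4 arrays were alike in overall signal, with 33.5% to 34.5% of probe sets at 4 or more, and the 3' against 5' difference of the Actb control probe sets lay between 1.22 and 1.24 (log2) on all arrays.

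**Figure D1:**
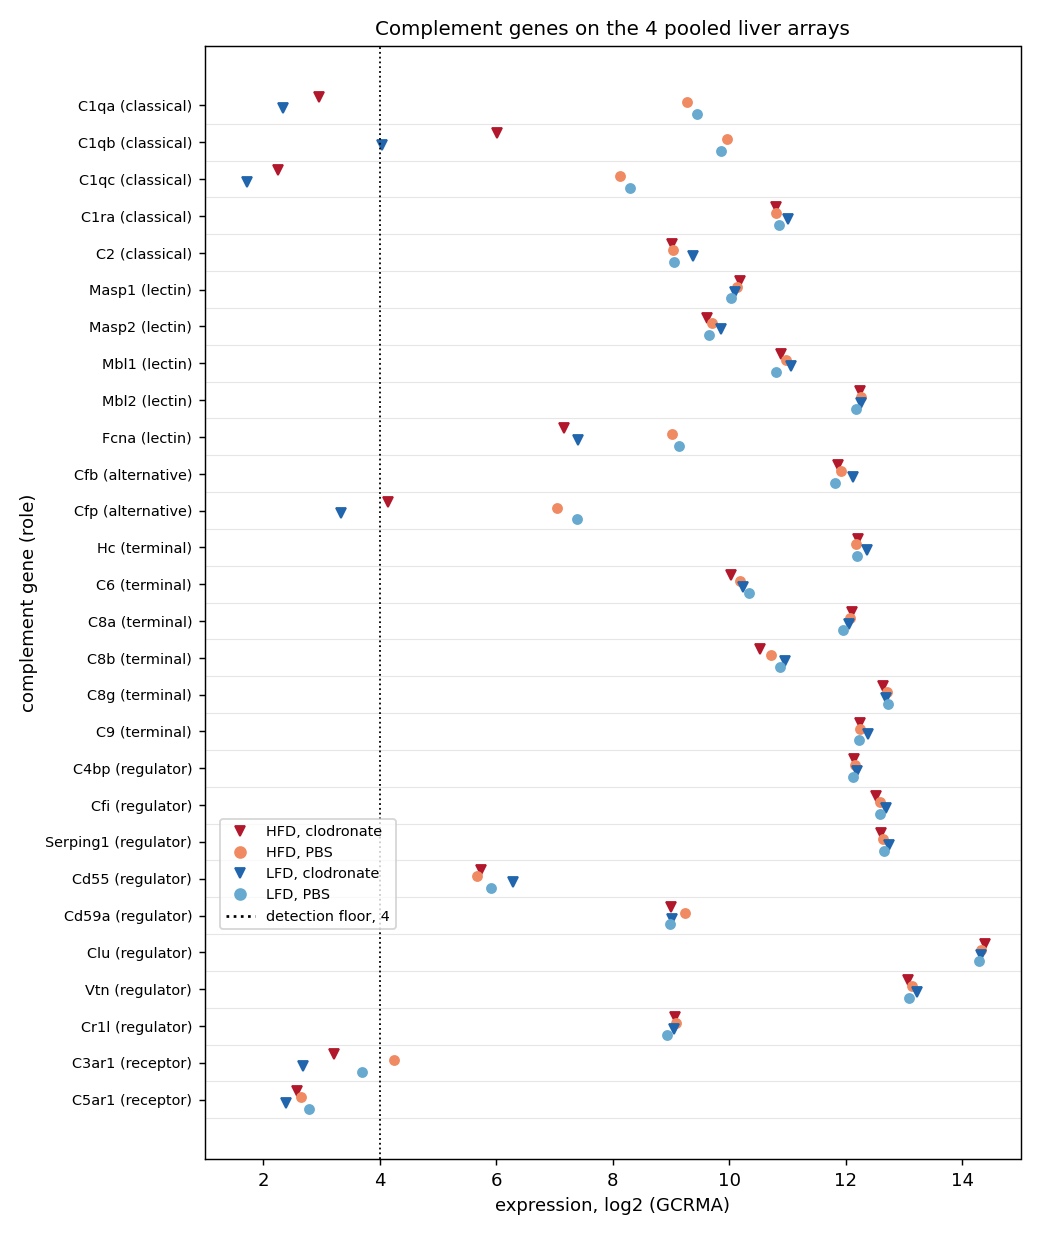
Log2 expression of the 28 complement genes on the 4 pooled arrays (HFD, high-fat diet; LFD, low-fat diet), with 1 symbol per array and the role of each gene in parentheses. C1qa, C1qb, C1qc, Cfp and Fcna are far to the left on both clodronate arrays. C3ar1, mostly below 4, is also lower there, and the other genes lie close together over the arrays. Levels of different genes are from different probe sets and are not comparable.

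The transcripts of the 3 C1q chains, which together form the recognition molecule of the classical pathway, had far lower signal after clodronate on both diets. C1qa was at 2.96 on the high-fat diet with clodronate against 9.28 with PBS, and at 2.35 on the low-fat diet with clodronate against 9.44 with PBS. It was thus at least 38.8-fold lower on the high-fat and at least 43.4-fold lower on the low-fat diet. C1qc was at 2.25 with clodronate against 8.13 with PBS on the high-fat diet, and at 1.72 against 8.30 on the low-fat diet, at least 17.5-fold and at least 19.7-fold lower. Both chains were below the detection limit on both clodronate arrays. C1qb was at 6.02 with clodronate against 9.96 with PBS on the high-fat diet, 15.4-fold lower. On the low-fat diet it was at 4.04 with clodronate against 9.86 with PBS, 56.4-fold lower. By the probe set used, C1qb was not below 4 on either clodronate array, unlike the other chains. Its low-fat value lay just above this limit. That probe set, and the other one above 4 there, are of a cross-hybridising type (names ending in _x_at). The remaining C1qb probe set was at 2.79 there. In the additive limma model over all 4 arrays, C1qa fell (adjusted p = 2.07e-07, Benjamini-Hochberg), as did C1qc (limma, Benjamini-Hochberg adjusted p = 5.4e-07). C1qb fell by 4.88 ± 1.33 (log2, SD between diets, n = 2; limma, Benjamini-Hochberg adjusted p = 4.46e-05).

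Properdin and ficolin A were the remaining members that passed the threshold with lower signal. Cfp, which encodes properdin, a stabiliser of the alternative pathway convertase that leukocytes release, was at 4.15 with clodronate against 7.04 with PBS on the high-fat diet, 7.39-fold lower. On the low-fat diet it was at 3.34 with clodronate against 7.39 with PBS, at least 10.5-fold lower (limma, Benjamini-Hochberg adjusted p = 9.39e-05 for the averaged effect). Fcna, which encodes ficolin A, a sugar-binding starter of the lectin pathway, was at 7.17 with clodronate against 9.03 with PBS on the high-fat diet and at 7.40 against 9.14 on the low-fat diet. These were 3.61-fold and 3.34-fold lower, and Fcna fell by 1.80 ± 0.08 (log2, SD, n = 2; limma, Benjamini-Hochberg adjusted p = 3.16e-05). Unlike C1qa and C1qc it remained well above 4 on both clodronate arrays. A second Cfp probe set was below 4 on all arrays and gave no information.

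Altogether 5 of the 27 tested members fell after clodronate and 0 rose, where 0.971% of the 8650 genes tested fell and 0.116% rose. At an unadjusted p under 0.05, limma gave 6 members lower, with C3ar1 added, and 0 higher, where 3.13% of all genes were lower and 1.61% higher at this threshold. The same 5 genes were 1.5-fold or more lower on each diet, where 2.98% of all genes were so on the high-fat and 1.63% on the low-fat diet, and 0 members were 1.5-fold or more higher, against 0.636% and 1.75% of all genes. Without the mean-dependent prior variance in limma, the adjusted p was 0.0632 for C1qb and 0.0573 for Cfp, so that 3 members fell, C1qa, C1qc and Fcna. With values below 4 set to 4 before the fit all 5 fell, at larger limma adjusted p of 6.33e-05 for C1qa, 0.00332 for C1qb, 0.00021 for C1qc and 0.00147 for Cfp and Fcna (Benjamini-Hochberg). C3ar1, with 3.22 on the clodronate array against 4.25 on the PBS array of the high-fat diet and 2.68 against 3.69 on the low-fat diet, did not pass (limma, Benjamini-Hochberg adjusted p = 0.112), and 3 of its 4 values were below 4. Its other probe sets were below 4 throughout.

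Of the 7 members assigned to macrophages and other myeloid cells from textbook knowledge, 5 fell, 1 did not pass and 1 was not measurable. Of the 18 analysed members assigned to hepatocytes 0 fell and 0 rose, where 0.971% of all genes fell and 0.116% rose. A count of 0 in 18 is near those shares. The 3 of mixed or broad expression, Cd55, Cd59a and Cr1l, did not pass either. The members and lists were chosen with earlier results of these data known, so the split by source is not independent of those results. The signal of macrophage markers moved with the first group. Of 12 markers 12 fell in limma on the values as deposited, and 10 with values below 4 set to 4. The exceptions were Timd4 and Marco, which reached 4 only on the low-fat PBS array. At the single arrays, 4 of the 12 were at 4 or more on the high-fat clodronate array against 10 on its PBS array, and 3 on the low-fat clodronate array against 12. Their summed linear signal was 384 on the high-fat clodronate array against 5009 with PBS, and 394 on the low-fat clodronate array against 5529 with PBS. Neutrophils and monocytes can also express Cfp and C5ar1. Of the 6 neutrophil markers with a probe set only S100a8 and S100a9 exceeded 4, at 4.15 and 4.05 on the low-fat clodronate array, and the 3 monocyte markers were below 4 on all arrays.

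**Figure D2:**
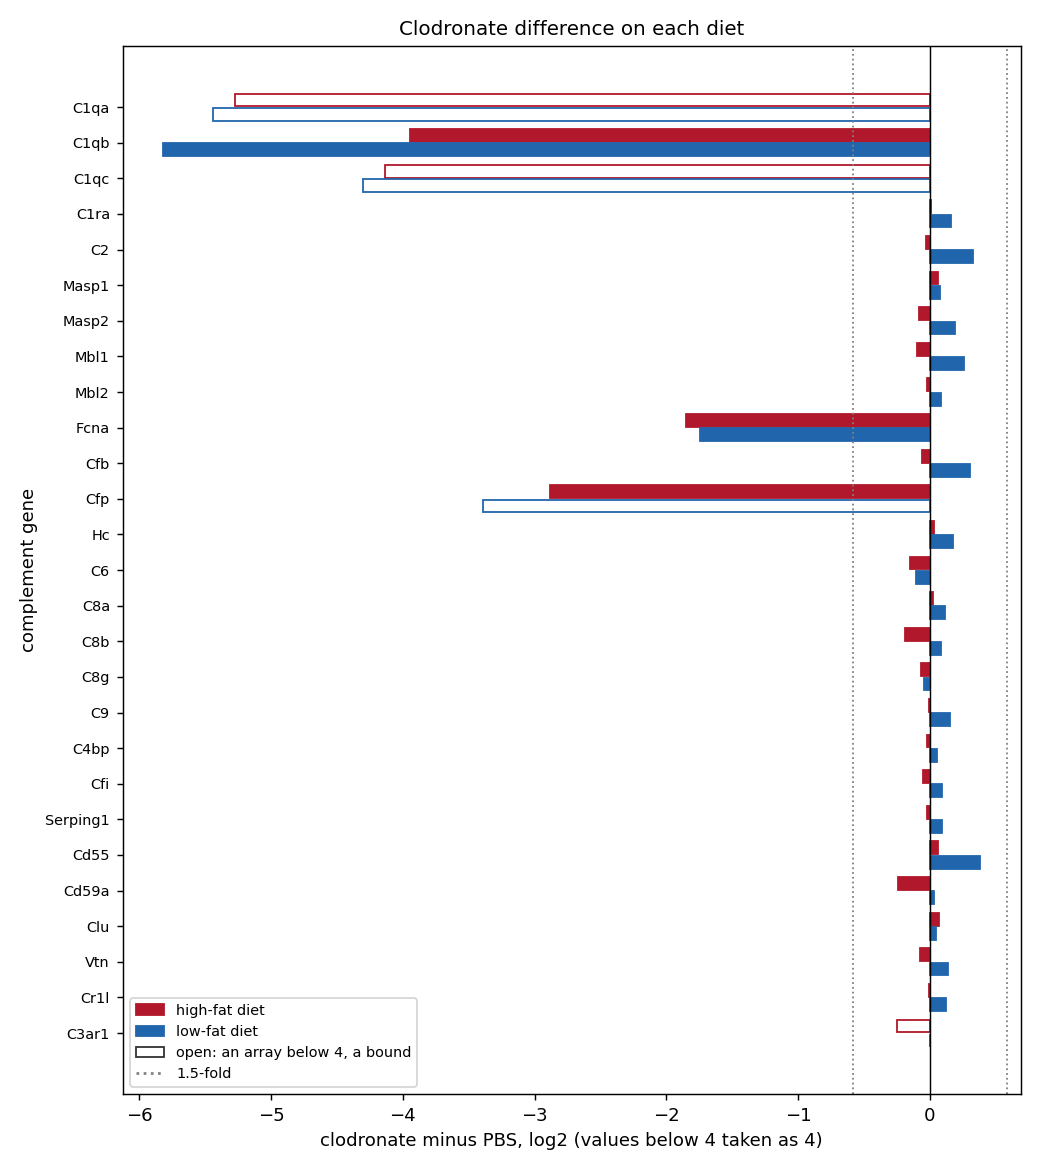
Log2 difference between clodronate and PBS for the 27 tested complement genes on the high-fat diet (upper bar) and the low-fat diet (lower bar), with values below 4 taken as 4; open bars are bounds because an array was below 4, and dotted lines mark 1.5-fold. C1qa, C1qb, C1qc, Cfp and Fcna pass the 1.5-fold line on both diets, and 0 of the other genes do.

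The C1qb difference after clodronate was smaller on the high-fat than on the low-fat diet. In clodronate-treated mice it was 3.93-fold higher on the high-fat than on the low-fat diet, at 6.02 against 4.04. Its other probe sets had the same direction, at 5.97 on the high-fat against 4.23 on the low-fat clodronate array (3.33-fold), and at 5.10 against 2.79 (at least 2.14-fold). With PBS the level on the 2 diets differed by 0.10 at most, for any of the 3 probe sets. Among clodronate-treated mice C1qb was the 1 member at least 1.5-fold above the low-fat level in the high-fat group, where 1.69% of all genes were, and the 1 member whose clodronate differences on the 2 diets differed 2-fold or more, by 1.87 (log2), where 1.4% of all genes did. This difference rests on single arrays, 1 of them close to the detection limit, and was not tested. With a floor of 5 in place of 4 the low-fat value was under the floor. The diet difference with clodronate was then at least 1.02 in place of 1.97 (log2).

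The other C1q chains were too dim on the clodronate arrays for such a comparison, and Cfp was 1.11-fold higher at least. Macrophage markers did not all share the direction of C1qb. Cd5l, a secreted protein of resident macrophages, was at 5.82 on the high-fat clodronate array against 3.38 on the low-fat one, at least 3.54-fold higher. Csf1r, the receptor that macrophages need to survive, was at 4.59 against 4.33. Lyz2 and Tyrobp, also expressed by other myeloid cells, were lower on the high-fat clodronate array, at 7.80 against 8.12 and at 5.10 against 5.42. Clec4f, a lectin of Kupffer cells, was below 4 on both, at 1.88 and 1.92. The part of the number or kind of remaining macrophages in the C1qb difference was not tested.

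**Figure D3:**
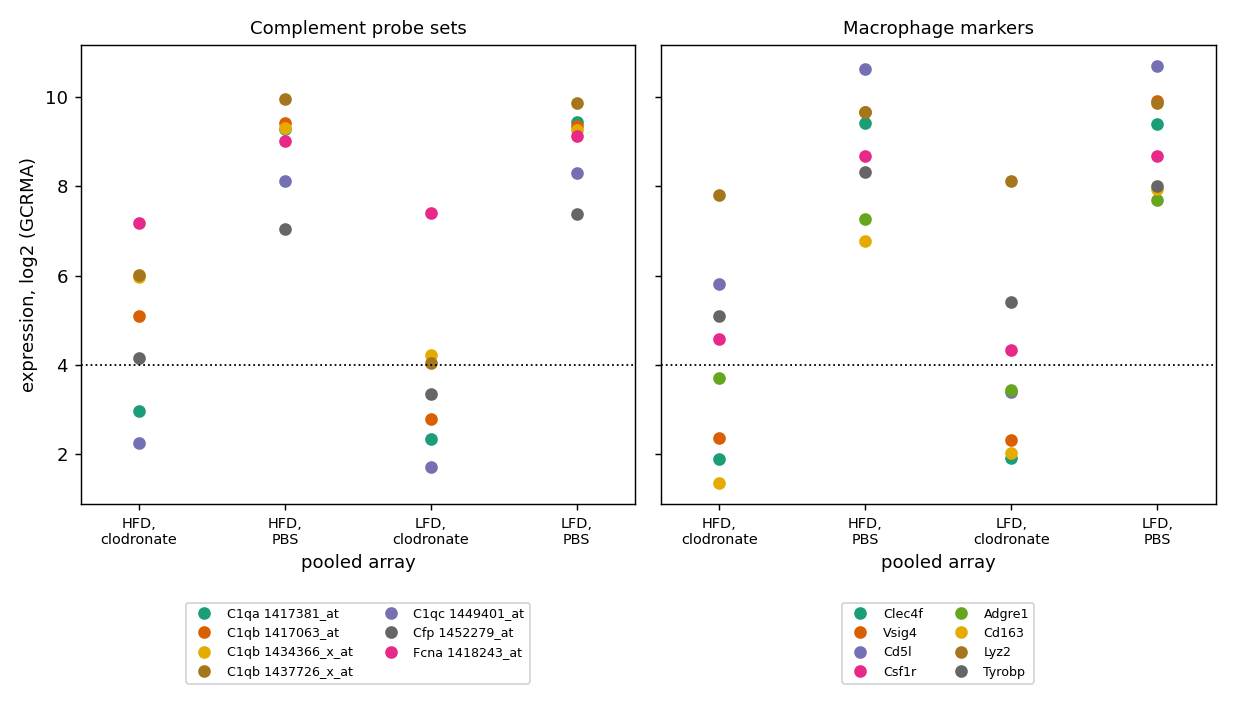
Log2 expression of the complement probe sets with lower signal after clodronate (left) and of 8 macrophage markers (right) on the 4 pooled arrays; each colour is 1 probe set or gene and the dotted line is the detection limit of 4. All 3 C1qb probe sets, and Cd5l among the markers, are higher on the high-fat than on the low-fat clodronate array, while Fcna and Lyz2 stay above 7 on both.

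The remaining members of the classical pathway showed small differences. C1ra, the protease that C1q activates first, was at 10.81 with clodronate against 10.80 with PBS on the high-fat diet, and at 11.01 against 10.85 on the low-fat diet. C2, the protease of the classical and lectin convertase, was at 9.01 against 9.04 on the high-fat diet and at 9.38 against 9.05 on the low-fat diet, where the low-fat clodronate array stood apart. Both C1ra and C2 had an adjusted p of 1 for the clodronate effect in limma (Benjamini-Hochberg). C2, C3ar1, C6, C8b, Mbl1, Cd55, Cd59a and the further probe sets are named after their values were seen. The clodronate differences of the 3 C2 probe sets lay between 0.26 and 0.40 in low-fat livers and between -0.03 and 0.21 in high-fat livers.

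The lectin pathway includes Mbl1 and Mbl2, the mannose-binding lectins, and Masp1 and Masp2, the proteases that travel with them. By their brightest probe sets these differed by at most 0.26 in any clodronate comparison. Mbl2 was the steadiest, at 12.24 with clodronate against 12.26 with PBS on the high-fat diet and at 12.26 against 12.18 on the low-fat diet. Masp1 gives rise to several proteins by splicing, and its probe sets disagreed. The brightest was higher after clodronate by 0.06 on the high-fat and 0.08 on the low-fat diet. A dimmer one was at 6.51 with clodronate against 7.33 with PBS on the high-fat diet and at 6.98 against 6.74 on the low-fat diet. For another the clodronate difference was -0.40 in high-fat livers and 0.06 in low-fat livers. The single differences of these probe sets have no replicate, and which transcripts they read was not examined.

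Of the alternative pathway, Cfb, the protease of the C3 convertase, was at 11.87 with clodronate against 11.93 with PBS on the high-fat diet and at 12.13 against 11.82 on the low-fat diet. The members of the membrane attack complex were nearly level. Hc, C6, C8a, C8b, C8g and C9 differed after clodronate by -0.19 to 0.03 on the high-fat and by -0.10 to 0.17 on the low-fat diet. C8g, the smallest chain of C8, was at 12.64 against 12.71 on the high-fat diet and at 12.69 against 12.73 on the low-fat diet. C6, which some lists count among Kupffer cell genes, was at 10.04 with clodronate against 10.19 with PBS on the high-fat diet and at 10.24 against 10.34 on the low-fat diet. It did not share the large differences of the C1q chains.

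Regulators keep complement off the body's own cells. Secreted ones were Serping1 (C1 inhibitor), C4bp, Cfi (the protease that inactivates C3b and C4b), Clu (clusterin) and Vtn (vitronectin, which blocks the attack complex). By their brightest probe sets they differed after clodronate by -0.07 to 0.07 on the high-fat and by 0.05 to 0.14 on the low-fat diet. A dimmer Clu probe set differed by 0.01 on the high-fat and 0.28 on the low-fat diet, and a dimmer one of Vtn by 0.10 and 0.03. C4bp had the smallest range over the arrays of any member, 0.06, with 12.14 against 12.16 on the high-fat and 12.19 against 12.13 on the low-fat diet. The membrane regulators were Cd55, which splits convertases, Cd59a, which blocks C9, and Cr1l, the rodent regulator Crry. Cd55 differed by 0.06 on the high-fat and 0.38 on the low-fat diet, but its probe sets varied from -0.69 to 0.06 and from 0.07 to 0.49. Cd59a differed by -0.24 and 0.03, with 0.05 and 0.26 by its second probe set, and Cr1l by -0.01 and 0.13. Of the 8 regulators 0 passed for clodronate in limma, where all had an adjusted p of 1 (Benjamini-Hochberg). Over all genes 0.971% fell and 0.116% rose, so a count of 0 in 8 is near these shares.

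Small differences of the hepatocyte members after clodronate went with the diet. In high-fat livers 5 of 18 were above 0 and their median was -0.03 (log2). Over all genes 36.4% were above 0 there and the median was -0.05. Quantile normalization gave 11 of 18 above 0, with a median of 0.009 against 0.006 for all genes. In low-fat livers 16 of 18 were above 0, their median being 0.10, where 59.7% of all genes were above 0 and their median was 0.04. The differences on the low-fat diet ranged from -0.10 for C6 to 0.33 for C2, 1.25-fold. C2, Cfb and Mbl1, named for their size after the values were seen, had the largest ones, at 0.33, 0.31 and 0.26, and on the high-fat diet they differed by -0.03, -0.06 and -0.10. By their brightest probe sets 17 of 18 hepatocyte members, all but Clu, had a smaller clodronate difference in high-fat than in low-fat livers. Over all genes 65.9% did. The exception depended on the probe set. Dimmer Clu probe sets differed by -0.05 to 0.01 in high-fat livers, against 0.12 to 0.28 in low-fat livers. A dimmer Vtn probe set went the other way, at 0.10 in high-fat against 0.03 in low-fat livers. For a dimmer Masp2 probe set the values were nearly level, at 0.136 against 0.139. The median of the high-fat minus the low-fat clodronate difference was -0.14 for the hepatocyte members and -0.09 for all genes. For 11 hepatocyte markers it was -0.05, with 9 below 0. For 12 acute phase genes it was -0.13, with 8 below 0. These medians were not tested.

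**Figure D4:**
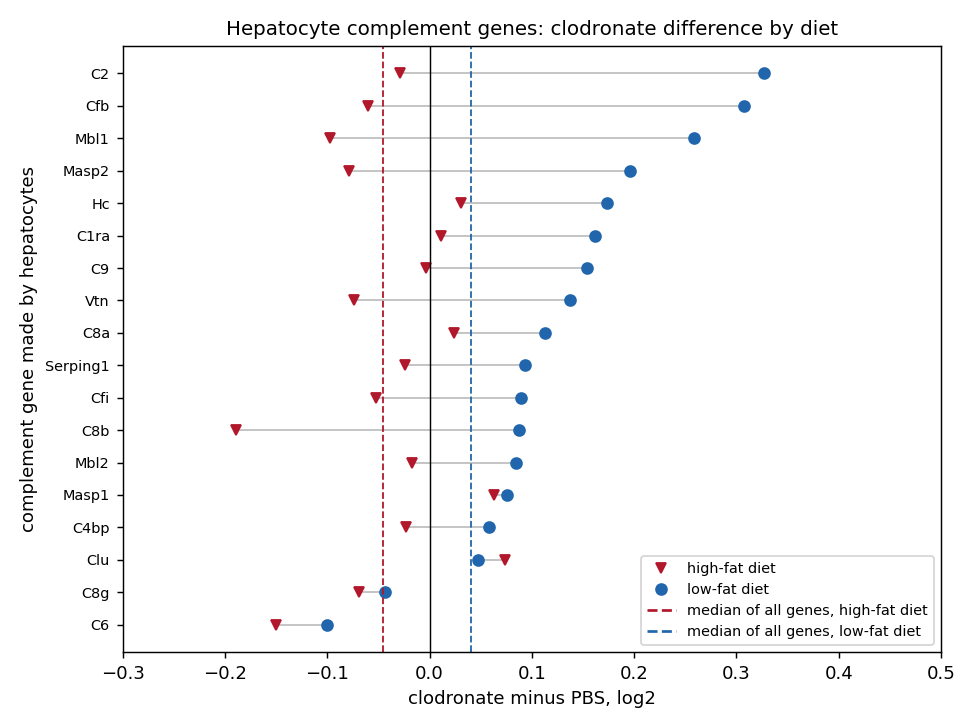
Log2 difference between clodronate and PBS for the 18 complement genes made by hepatocytes, on the high-fat diet (triangles) and the low-fat diet (circles), with the median of all genes tested on each diet as a dashed line. Circles lie right of 0 for 16 of 18 genes and triangles for 5 of 18, and all differences are within 0.33.

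In a list of acute phase genes, chosen for secretion by hepatocytes, some differences after clodronate were larger. They ranged from -0.06 for Saa3 to 2.93 for Orm2 in high-fat livers. In low-fat livers the range was from -0.17 for Saa3 to 2.74 for Lcn2. Of 12 such genes 5 rose after clodronate in limma, Saa1, Orm1, Orm2, Hp and Lbp, against 1, Saa1, with values below 4 set to 4 before the fit, and the median difference of the list was 0.25 in high-fat and 0.36 in low-fat livers. Saa1, serum amyloid A1, was at 11.76 with clodronate against 10.81 with PBS on the high-fat diet and at 10.77 against 9.97 on the low-fat diet. Of the 11 hepatocyte markers with a probe set 0 passed, with medians of -0.03 and 0.01. Over all genes 0.971% fell and 0.116% rose after clodronate in limma. Whether complement genes differed from acute phase genes was not tested.

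No complement gene passed for diet in limma. With values averaged over both injections, 0 of 27 members fell and 0 rose on the high-fat against the low-fat diet, where 0.821% of all genes fell and 0.867% rose. At an unadjusted p under 0.05, limma gave 1 member lower, C8b, and 2 higher, C1qb and C3ar1, where 7.63% of all genes were lower and 5.56% higher at this threshold. C1qb had the largest mean difference, 1.04 ± 1.33 (log2, SD, n = 2; limma, Benjamini-Hochberg adjusted p = 0.21), which came from the clodronate arrays. C8b was at 10.53 on the high-fat against 10.97 on the low-fat diet with clodronate and at 10.72 against 10.88 with PBS (limma, Benjamini-Hochberg adjusted p = 0.149).

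In PBS-treated mice 0 members were 1.5-fold or more lower and 0 higher on the high-fat diet, where 1.47% and 2.15% of all genes were. Of the 18 hepatocyte members 10 were above 0, where 49.5% of all genes were, and their median of 0.02 turned to -0.00318 with the mean of all probe sets of a gene. The largest diet differences with PBS were those of Cfp, at 7.04 on the high-fat against 7.39 on the low-fat diet, and Cd59a, at 9.25 against 8.98. In clodronate-treated mice 0 members were 1.5-fold or more lower by their brightest probe set, where 4.79% of all genes were. The closest was Cd55, at 5.74 on the high-fat against 6.30 on the low-fat diet, 1.48-fold lower. Its other probe sets were 1.52-fold and 1.61-fold lower, so this count depends on the probe set used. Of the 18 hepatocyte members 3 were above 0, where 33.1% of all genes were, and their median was -0.16 against -0.08 over all genes. The diet comparisons use the same arrays as the clodronate comparisons and are not independent of them.

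Other genes of the pathway were taken from a list of 33, of which 25 had a probe set and 16 were tested. After clodronate 2 fell and 0 rose in limma, where 0.971% of all genes fell and 0.116% rose. Vsig4, which fell, is also among the 12 macrophage markers counted above. With diet 0 passed, where 0.821% of all genes fell and 0.867% rose. Vsig4, the macrophage receptor for C3b and iC3b, was at 2.35 with clodronate against 9.66 with PBS on the high-fat diet and at 2.31 against 9.91 on the low-fat diet, at least 50.7-fold and 60.1-fold lower. Itgb2, the shared chain of the complement receptors 3 and 4, was at 4.01 against 5.13 on the high-fat and at 4.00 against 5.20 on the low-fat diet (limma, Benjamini-Hochberg adjusted p = 0.0307). On both clodronate arrays Itgb2 lay at the detection limit of 4. Its partner chains Itgam and Itgax were below 4 on all arrays. The 14 that passed in neither direction included C1s1, the second protease of C1, the carboxypeptidase N chains Cpn1 and Cpn2, which inactivate anaphylatoxins, and the collectins Colec10 and Colec11.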

How the data were processed

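The table deposited by the authors holds log2 expression values of 45101 probe sets on 4 one-colour Affymetrix arrays. The submitters' processing notes name GCRMA, version 2.24.1, a method that models background from probe sequence. If the arrays were also brought to a common distribution, as is usual with it, a change shared by all genes would be lost. Values entered the test as deposited.

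Probe sets were named by the platform annotation, in which 34958 had 1 symbol. Each of 18194 genes was represented by its probe set with the highest mean. Genes reaching 4 on any array, 8650 in number, entered the test. An additive model of injection and diet was fitted over the 4 arrays (limma 3.58.1, R 4.3.3) with 1 residual and 8.46 prior degrees of freedom per gene, a mean-dependent prior variance and Benjamini-Hochberg adjustment at 0.05. The residual holds noise and any dependence of one effect on the other. The error behind each p-value comes mostly from the prior, that is from the residuals of other genes. It covers the spread between these arrays only, not between mice. A permutation of 2 arrays against 2 cannot go below p = 0.333. Differences between single arrays, with values below 4 set to 4, have no replicate and no p-value. The number of arrays limits the precision.

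Members given per array were those past the threshold, those 1.5-fold different in a pair of arrays, and the steadiest member of each role. C2, C3ar1, C6, C8b, Mbl1, Cd55 and Cd59a were added after their values were seen. The members and lists were chosen with earlier results of these data known. The fit was tested on simulated data. Promoter letters are from RefSeq (GRCm38.p6), in which 24 members had a window. Tables were made with pandas 2.3.3, numpy 2.4.6 and Python 3.11.15. Alternatives tried were limma without the trend, centring, quantile normalization, other floors, no filter, the mean of a gene's probe sets, and leaving out cross-hybridising probe sets.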

Additional observations from a re-analysis of the deposited data

Results flagged for a closer look

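A search for members whose difference had opposite signs, each of 0.3 or more (log2), in the other pair of arrays found 0 of 27 genes. It was then widened to the 42 member probe sets that reached 4 on any array, a scope chosen after that empty result and with the Masp1 values already seen. This wider search found 1, a dimmer probe set of Masp1, whose diet difference had opposite signs in the 2 injection groups. High-fat minus low-fat was -0.47 (log2) with clodronate and 0.60 with PBS. The difference between the injection groups was not tested, since each value is a pair of single arrays. The brightest Masp1 probe set differed by 0.09 with clodronate and 0.10 with PBS.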

How the results depend on the processing

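The counts of members kept their side under most settings, with 75 of 80 alternative values of 12 counts within 1.5 times of the reported one. After clodronate 3 members fell in place of 5 without the mean-dependent prior variance. With each array centred on its median, 1 member, C1qb, rose with the high-fat diet in limma (mean difference 1.02), where the prior degrees of freedom became infinite, and C3ar1 passed for clodronate (adjusted p = 0.00471). In clodronate-treated mice 2 members, C1qb and Cfp, were 1.5-fold or more higher on the high-fat diet with a floor of 3, and 1 member, Cd55, was 1.5-fold or more lower after centring or with the mean of all probe sets of a gene. The C1qb diet difference with clodronate was at least 1.02 with a floor of 5 and at least 1.10 without the _x_at and _s_at probe sets, against 1.97. Both are lower bounds because the low-fat value was then under the floor. The probe set behind the second was at 5.10 against 2.79 as deposited. Of 376 alternative values for single members in limma, 362 kept direction and side of the threshold and 10 changed sign, none of them past the threshold in either fit. Diet effects became -0.082 for C1qa, -0.084 for C1qc and -0.10 for Cfp with values below 4 set to 4 before the fit, 0.019 for C4bp after quantile normalization and -0.0044 for Mbl1 after centring. With the mean of all probe sets the clodronate effects became -0.13 for Masp1, 0.024 for Cd59a and -0.022 for Cr1l, and the diet effects -0.0078 for Masp1 and -0.019 for Cr1l.

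Scaling moved the small differences of the hepatocyte members together with those of all genes. After quantile normalization 11 of 18 were above 0 after clodronate on the high-fat diet, median 0.009 against 0.006 for all genes. After centring 2 of 18 were, median -0.07 against -0.08 for all genes. Above the median of all genes were 9 of 18 and 10 of 18 members, against 10 of 18 in the main setting. In low-fat livers 16 of 18 were above 0 under all 6 alternatives (medians 0.07 to 0.14). The median of all genes there was 0 after quantile normalization and 0.08 after centring, with 16 of 18 members above it in both. In clodronate-treated mice the diet median was -0.09 after quantile normalization and -0.21 after centring, against 0.001 and -0.13 for all genes. No paired analysis was possible because the groups share no replicate numbers beyond their diet and injection, which the additive model already holds. Without any 1 array that model has no residual degrees of freedom, so none was left out. Transcripts near or below 4 are poorly measured, which covers C5ar1, C3ar1 and, after clodronate, C1qa, C1qc, Cfp and, on the low-fat diet, C1qb. Among the other pathway genes it covers Vsig4 and Itgb2 after clodronate.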
